A study of Mus musculus with 70 samples.

Results

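The miRNAs described here are the 4 mature 3p miRNAs of the miR-130 and miR-301 family, listed as mmu-miR-130a-3p, mmu-miR-130b-3p, mmu-miR-301a-3p and mmu-miR-301b-3p and written without the species prefix below. They were chosen by name from the 1882 features of the deposited small RNA count table because they share one seed. Each of the 4 was listed once, and all 4 passed the filter that left 1072 features for testing, namely at least 1 CPM (counts scaled to a common library total) in at least 5 libraries. The study sequenced small RNA of wild-type C57BL/6 mice, with no transgene and no treatment, to find miRNAs that distinguish microglia from the remaining cells of the brain during postnatal development.

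Whole brains of female and male mice were digested into single cells at 3 ages, P6 and P15 (days after birth) and 8 weeks. Cells that bound to a dish coated with antibody to CD45 are called microglia, and unbound CD45- cells are called bulk cells, which the study describes as mainly neurons, oligodendrocytes and astrocytes. CD45 is carried by other leukocytes too, so the capture does not select microglia alone, and the bulk fraction is a mixture rather than a cell type. One library was made from each fraction of each mouse. The analysed set held 68 libraries of 34 mice, with 10 mice at P6 (4 female and 6 male), 12 at P15 and 12 at 8 weeks (6 of each sex at both of these ages). P6 female mouse 6 does not enter it, since the authors had removed 1 outlying mouse and this one was inferred to be it.

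A miRNA guides the silencing complex to messenger RNAs mainly by pairing of its seed, bases 2 to 8 from its 5′ end, so miRNAs with one seed are grouped into a family with overlapping predicted targets. A precursor hairpin gives rise to a 5p and a 3p strand, of which one is usually kept. miR-130 family members are known to repress the adipogenic transcription factor PPARγ, and miR-130a is known for its part in the growth of blood vessels. All 4 members carry their seed on the 3p strand.

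The mature sequences, from RefSeq annotation of GRCm38.p6, are shown because the members differ outside the seed while the seed, in capitals, is shared. RefSeq matched miR-130a-3p, miR-130b-3p and miR-301a-3p as mature entries. For miR-301b-3p a stretch of 23 bases of its hairpin, Mir301b, is shown from 1 base before the seed.
mmu-miR-130a-3p: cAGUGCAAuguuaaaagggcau
mmu-miR-130b-3p: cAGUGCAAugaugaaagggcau
mmu-miR-301a-3p: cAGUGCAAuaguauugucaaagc
Mir301b hairpin stretch: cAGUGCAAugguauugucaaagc

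miR-130a-3p and miR-130b-3p differed at 2 of 22 bases, which are U11A and A13G counted from the 5′ end of the mature sequence, with the base of miR-130a-3p first. Between miR-301a-3p and the Mir301b stretch there was 1 difference in 23 bases, A10G. Across the miR-130 and miR-301 branches 9 to 11 of 22 bases differed, nearly all of them in the 3′ part of the molecule. The seed AGUGCAA occurred in 7 of 1679 mature mouse entries of the RefSeq annotation used, and 4 of these were not members, namely miR-130c, miR-721, miR-6341 and miR-6389. For miR-721 and miR-6341 there were 0 counts in each of the 68 libraries (a count of 0 allows up to 3 counts, or 0.343 to 1.79 CPM, with counting error alone considered). miR-130c had 1 count in a single P6 microglial library, and miR-6389 had no entry in the count table. Among the names of this seed with values in these libraries, the 4 members therefore held nearly all counts.

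The members come from 3 places in the genome (GRCm38, GENCODE vM21 annotation). The Mir130a hairpin lies on the minus strand at chr2:84741115-84741178, outside other genes, with Gm19426 at 991 bases and Ypel4 at 2460 bases from it. Mir301, which gives rise to miR-301a, lies at chr11:87113004-87113089 on the plus strand in an intron of Ska2, whose protein helps attach chromosomes to the spindle. Mir130b at chr16:17124061-17124142 and Mir301b at chr16:17124400-17124496 are both on the minus strand in an intron of 2610318N02Rik, with 257 bases between them. This pair is called the chromosome 16 cluster.

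Library totals ranged from 1678034 to 4066435 counts in P6 microglia and from 5979569 to 8747394 in P6 bulk cells, so each bulk library of that age was deeper than each microglial one, and from 2795957 to 6763115 at the later ages. The labels were checked against miRNAs known to mark cell types, with each list given as the range of its summed CPM. The 3 myeloid miRNAs (miR-142a-3p, miR-142a-5p and miR-223-3p) summed to between 10645 and 34889 CPM in microglial libraries and between 106 and 503 in bulk libraries, and 3 of 3 were higher in microglia. Of the other lists, 4 of 4 neuronal, 2 of 2 oligodendrocyte and 2 of 2 endothelial miRNAs were lower in microglia with the ages pooled, 4 of 4 erythroid miRNAs were higher, and 0 of 4 mural and fibroblast miRNAs differed by the test. Microglial libraries held 13810.5 to 51884 CPM of neuronal miRNAs against 49141 to 166941 in bulk cells, and 2042 to 18185 CPM of mural and fibroblast miRNAs against 4995 to 14710. Erythroid miRNAs summed to between 8113 and 107132 CPM in microglial libraries and between 1730 and 10675 in bulk libraries. The endothelial sums were 1201 to 6589 and 10435 to 42411.5 CPM, and the oligodendrocyte sums 441 to 2154 and 817 to 26630 CPM, respectively. No marker list was at 0 in either fraction.

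Changes were tested with limma-voom and TREAT, which asks whether a difference exceeds an absolute log2 fold change of 1, that is, 2-fold, and a feature was called where its p, adjusted after Benjamini and Hochberg over all 1072 features, was below 0.05. Where no other test is named, adjusted p-values come from limma with TREAT. Levels are given as CPM, and differences are log2 fold changes after scaling of the libraries with TMM, averaged over the sexes. In these samples of RNA from a cell fraction, a smaller share of cells that hold a miRNA and less of it in each cell cannot be told apart.

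The first question was which members distinguish microglia from bulk cells. At each of the 3 ages miR-130b-3p, of the chromosome 16 cluster, was higher in microglia, and its cluster partner miR-301b-3p was higher at P6 and P15 and was not called at 8 weeks. miR-301a-3p stood within 1.38-fold of the bulk level at all ages, and miR-130a-3p was below it without passing the test. Pooled over the ages, 1 of 4 members was called higher and 0 lower, whereas 23.3% of all features were called higher and 21.8% lower.

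**Figure D1:**
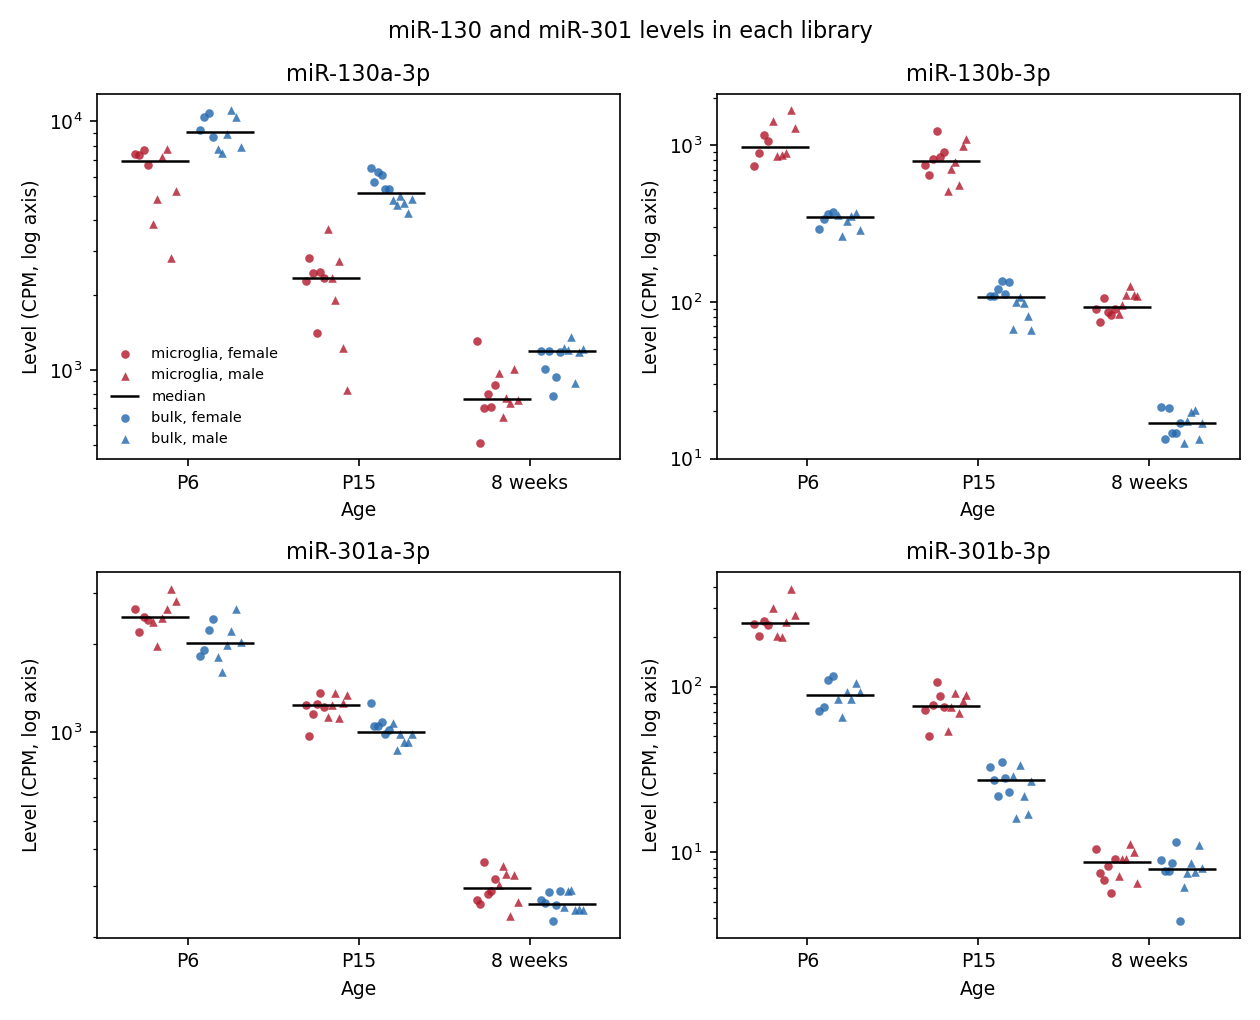
Level of each member in each of the 68 libraries (CPM on a log axis) by age, with microglia in red, bulk cells in blue, circles for females, triangles for males and black lines for group medians. miR-130b-3p lies higher in microglia at each age with no overlap, and all 4 members are lowest at 8 weeks in both fractions.

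At P6, miR-130b-3p ranged from 740 to 1675 CPM in microglia with a median of 980, and from 262 to 378 CPM in bulk cells with a median of 348. The fractions did not overlap, and the level was higher in microglia in 10 of 10 mice. The log2 difference was 1.55 ± 0.11 (SE, adjusted p = 1.37e-05), or 2.92-fold. miR-301b-3p ranged from 201 to 392 CPM (median 244) in microglia and from 65.2 to 116 CPM (median 88.5) in bulk cells, again without overlap and higher in 10 of 10 mice. Its log2 difference was 1.39 ± 0.11 (SE, adjusted p = 0.00203). These 2 of 4 members were called higher at P6, where 17.4% of all features were, and 13.3% of features were higher in microglia without overlap of the groups.

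The 2 members outside the cluster showed no such separation at P6. miR-301a-3p, from the Ska2 intron, lay between 1968 and 3093 CPM in microglia (median 2466) and between 1610 and 2639 CPM in bulk cells (median 2012). The groups overlapped, 7 of 10 mice were higher in microglia, and the log2 difference was 0.19 ± 0.08 (SE, adjusted p = 1). miR-130a-3p ran from 2815 to 7763 CPM in microglia (median 6961) and from 7488 to 11110 CPM in bulk cells (median 9070). It was lower in microglia in 10 of 10 mice, by a log2 difference of -0.70 ± 0.15 (SE, adjusted p = 1), and the groups overlapped.

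At P15 the distance between the fractions was widest for miR-130b-3p. Microglia held 508 to 1227 CPM (median 798) and bulk cells 66.5 to 137 CPM (median 108), with no overlap and a higher level in microglia in 12 of 12 mice. The log2 difference was 3.18 ± 0.10 (SE, adjusted p = 4.60e-29), or 9.04-fold. miR-301b-3p ranged from 50.0 to 106 CPM in microglia (median 76.3) and from 16.0 to 35.1 CPM in bulk cells (median 27.1), again without overlap and higher in 12 of 12 mice, with a log2 difference of 1.79 ± 0.12 (SE, adjusted p = 1.06e-07). Both were called higher, as were 21.3% of all features, and 16.2% of features were higher without overlap.

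miR-130a-3p at P15 spread from 835 to 3685 CPM in microglia (median 2338), and from 4282 to 6512 CPM in bulk cells (median 5174). After TMM scaling the levels of the fractions overlapped. The level was lower in microglia in 12 of 12 mice, by a log2 difference of -1.15 ± 0.14 (SE, adjusted p = 0.306), which did not pass the test against 2-fold. It did pass with library size as the only scaling (-1.35, adjusted p = 0.0126) and when only features with 10 counts or more in 12 libraries or more were kept (-1.39, adjusted p = 0.00780). miR-301a-3p ran from 968 to 1360 CPM in microglia (median 1239) and from 873 to 1256 CPM in bulk cells (median 1006), and was higher in microglia in 12 of 12 mice by a log2 difference of only 0.47 ± 0.08 (SE, adjusted p = 1).

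At 8 weeks only miR-130b-3p of the 2 cluster members was called higher in microglia. miR-130b-3p ranged from 74.1 to 127 CPM in microglia (median 93.1) and from 12.6 to 21.5 CPM in bulk cells (median 16.9). It was higher in microglia in 12 of 12 mice without overlap, by a log2 difference of 2.59 ± 0.14 (SE, adjusted p = 1.15e-16), or 6.02-fold. For miR-301b-3p the microglial libraries lay between 5.65 and 11.1 CPM (median 8.63), and the bulk libraries between 3.80 and 11.4 CPM (median 7.82). The groups overlapped almost fully, 6 of 12 mice were higher in microglia, and the log2 difference was 0.13 ± 0.18 (SE, adjusted p = 1). These values rest on 24 to 54 counts per microglial library and 15 to 65 per bulk library, so this member is measured least precisely at 8 weeks. At this age 1 of 4 members was called higher, against 21.2% of all features, and 19.4% of features were higher without overlap.

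The other 2 members were not called at 8 weeks. miR-130a-3p ranged from 510 to 1308 CPM in microglia (median 763) and from 787 to 1354 CPM in bulk cells (median 1188), and was lower in microglia in 11 of 12 mice, with a log2 difference of -0.40 ± 0.15 (SE, adjusted p = 1). miR-301a-3p ranged from 237 to 363 CPM (median 295) and from 227 to 290 CPM (median 260) respectively, and was higher in 11 of 12 mice, by 0.24 ± 0.09 on the log2 scale (SE, adjusted p = 1). Both pairs of groups overlapped. Over the 3 ages, miR-130a-3p was lower in microglia in 33 of 34 mice, miR-301a-3p higher in 30, miR-301b-3p higher in 28 and miR-130b-3p higher in 34.

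Pooled log2 fold changes were 2.44 ± 0.07 for miR-130b-3p (SE, adjusted p = 8.08e-30), 1.10 ± 0.08 for miR-301b-3p (SE, adjusted p = 0.220), 0.30 ± 0.05 for miR-301a-3p and -0.75 ± 0.09 for miR-130a-3p (SE, adjusted p = 1 for both), with a median of 0.29 over all features. With no fold change threshold in limma, each of these 4 differences passed, as did 47.7% of all features in the higher and 37.8% in the lower direction. By the same test miR-130b-3p, miR-301b-3p and miR-301a-3p were higher and miR-130a-3p lower in microglia at P6, where 41.5% of features were higher and 28.4% lower, and at P15, where 42.5% and 33.3% were. At 8 weeks miR-130b-3p and miR-301a-3p were higher and miR-130a-3p lower, against 34.9% and 38.2% of features. The calls added without the threshold are of mean differences not shown to exceed 2-fold, and for miR-301a-3p at P6 the groups overlapped, 3 of 10 mice were lower in microglia and the limma adjusted p was 0.0448.

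Whether the microglial excess itself changed with age was tested as an interaction between fraction and age. From P6 to P15 it rose for miR-130b-3p by 1.63 ± 0.15 on the log2 scale (SE, adjusted p = 0.00320), and this was the 1 member of 4 called, against 0.466% of all features in this direction. The call was lost when P15 male mouse 6 was left out (1.46, adjusted p = 0.0673) and with library size as the only scaling (1.34, adjusted p = 0.363). The same interaction was called for both oligodendrocyte miRNAs, in the lower direction (-1.75 for miR-338-3p and -1.98 for miR-219a-5p, adjusted p = 0.00140 and 0.0155), and their part in the result of miR-130b-3p was not tested. From P15 to 8 weeks the excess of miR-301b-3p shifted by -1.66 ± 0.22 (SE, adjusted p = 0.0556), which missed the threshold, and passed it with values from -1.76 to -1.70 (adjusted p from 0.0196 to 0.0479) when 8-week female mouse 6, 8-week male mouse 4, P15 female mouse 1 or 2, or P15 male mouse 1 was left out. No other interaction of the members passed, with log2 values from -1.26 (miR-301b-3p, adjusted p = 0.411) to 1.04 (miR-130b-3p, adjusted p = 0.914) between P6 and 8 weeks, where 6.62% of features were called higher and 7.93% lower. From P15 to 8 weeks these shares were 1.49% and 1.87%. Without the threshold, limma called miR-130b-3p alone for the first interval (13.5% of features higher). For the interval from P15 to 8 weeks it called miR-130a-3p higher, against 11% of features, and miR-130b-3p and miR-301b-3p lower, against 25.2%. Over both intervals it called miR-130b-3p higher and miR-301b-3p lower, against 17.9% and 35.7%. With TREAT, both oligodendrocyte miRNAs were called lower in the interaction between P6 and 8 weeks (-3.04 and -2.29). Their part in the values of the members was not tested.

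**Figure D2:**
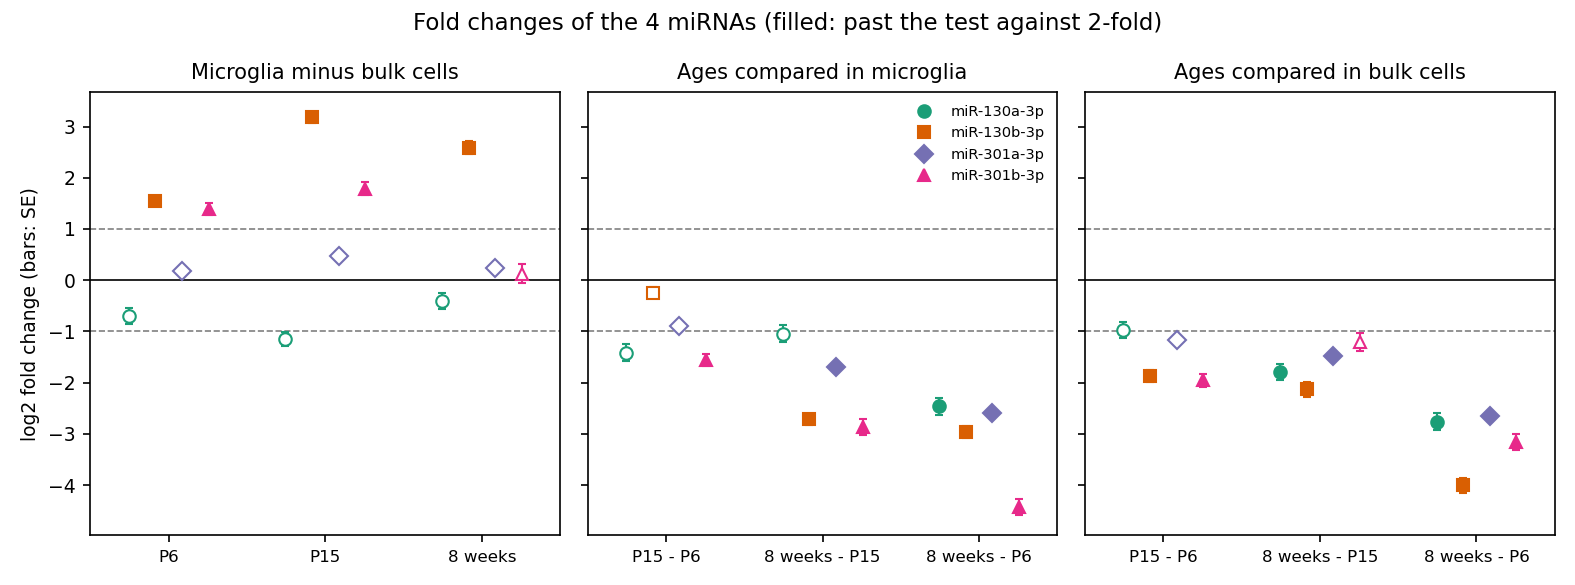
Log2 fold changes of the 4 members with standard errors, for microglia minus bulk cells at each age (left) and for the later minus the earlier age in microglia (middle) and in bulk cells (right). Filled symbols passed the limma test against 2-fold, dashed lines mark that threshold (a log2 difference of 1 in either direction), and all 4 members passed it between P6 and 8 weeks in both fractions.

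The next question was how the members change as microglia mature. All 4 fell between P6 and 8 weeks in microglia, where 9.42% of all features fell by the same test, and the groups of these 2 ages did not overlap for any of the 4, against 7.28% of features lower without overlap. miR-301b-3p fell most, from a median of 244 to 8.63 CPM, by a log2 difference of -4.42 ± 0.16 (SE, adjusted p = 6.15e-29), or 21.4-fold. miR-130b-3p fell from 980 to 93.1 CPM, by -2.96 ± 0.12 (SE, adjusted p = 9.00e-24). The fall was -2.60 ± 0.09 for miR-301a-3p (SE, adjusted p = 2.86e-24) and -2.46 ± 0.17 for miR-130a-3p (SE, adjusted p = 2.97e-11). The median change of all features was -0.17.

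Each interval was also tested on its own, and the intervals were not tested against each other. Between P6 and P15, miR-301b-3p fell in microglia by -1.56 ± 0.12 (SE, adjusted p = 0.000310) and was the 1 member of 4 called, against 2.15% of all features. The difference of miR-130b-3p between these ages was small, at -0.24 ± 0.11 (SE, adjusted p = 1), and the ages overlapped. miR-301a-3p differed by -0.90 ± 0.09 (SE, adjusted p = 1), with all P15 libraries below all P6 libraries, which also held for miR-301b-3p and for 1.87% of features.

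miR-130a-3p differed by -1.41 ± 0.16 between P6 and P15 microglia (SE, adjusted p = 0.190). Its range at P15 reached from below to within that at P6, and the call depended on single mice. Without P15 male mouse 1, which held its highest P15 level, the value was -1.52 (adjusted p = 0.0288), and without P6 male mouse 5, which held its lowest P6 level, it was -1.50 (adjusted p = 0.0230).

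Between P15 and 8 weeks 3 of 4 members fell in microglia, against 2.8% of all features. The log2 fold changes were -2.71 ± 0.11 for miR-130b-3p (SE, adjusted p = 1.61e-21), -2.87 ± 0.16 for miR-301b-3p (SE, adjusted p = 2.12e-15) and -1.70 ± 0.09 for miR-301a-3p (SE, adjusted p = 2.29e-09). The groups did not overlap for these 3, against 3.08% of features lower without overlap. miR-130a-3p differed by -1.04 ± 0.16 (SE, adjusted p = 1) and its groups overlapped. In fold terms, miR-130b-3p was 1.18-fold lower at P15 than at P6, which was not called, and 6.56-fold lower at 8 weeks than at P15.

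The same ages were compared in bulk cells, which share no libraries with the microglial comparisons but come from the same mice. All 4 members fell from P6 to 8 weeks here too, against 12.4% of all features, and their groups did not overlap, against 12.5% of features lower without overlap. miR-130b-3p fell most in bulk cells, by -4.00 ± 0.14 (SE, adjusted p = 1.23e-28), or 16.0-fold, from a median of 348 to 16.9 CPM. miR-301b-3p fell by -3.16 ± 0.16 (SE, adjusted p = 7.74e-19), miR-130a-3p by -2.76 ± 0.16 (SE, adjusted p = 2.67e-15) and miR-301a-3p by -2.65 ± 0.09 (SE, adjusted p = 1.25e-25).

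Markers of other cells changed between the same ages. In microglia 2 of the 4 mural and fibroblast miRNAs fell between P6 and 8 weeks, miR-199a-3p by -2.55 ± 0.12 (SE, adjusted p = 2.28e-17) and miR-214-3p by -4.45 ± 0.43 (SE, adjusted p = 3.88e-10), while the summed level of the list had medians of 10370.2 and 9886 CPM. Of the oligodendrocyte miRNAs 1 of 2 rose there, miR-338-3p by 1.85 ± 0.13 (SE, adjusted p = 9.56e-08), and 0 of 3 myeloid, 0 of 4 neuronal, 0 of 4 erythroid and 0 of 2 endothelial miRNAs were called. In bulk cells both oligodendrocyte miRNAs rose, miR-338-3p by 4.14 ± 0.12 (SE, adjusted p = 8.44e-35) and miR-219a-5p by 4.34 ± 0.18 (SE, adjusted p = 1.40e-26), and their summed level went from 817 to 1853 CPM at P6 to between 12857 and 26630.2 CPM at 8 weeks. The bulk fraction thus differed between these ages in markers of its cell types as well as in the 4 members. The mural and fibroblast miRNAs miR-199a-3p and miR-214-3p fell in bulk cells too, by -2.93 ± 0.12 (SE, adjusted p = 3.08e-23) and -4.24 ± 0.37 (SE, adjusted p = 1.17e-11), and 1 other of the list rose, miR-145a-5p by 1.91 ± 0.27 (SE, adjusted p = 0.00304). Further, 1 of 4 neuronal, 1 of 4 erythroid, 0 of 3 myeloid and 0 of 2 endothelial miRNAs were called in bulk cells, the first 2 higher.

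Within the first interval, from P6 to P15, erythroid miRNAs stood higher in P15 microglia, where 2 of 4 were called, miR-451a at 1.95 ± 0.22 (SE, adjusted p = 0.00129) and miR-486a-5p at 1.76 ± 0.24 (SE, adjusted p = 0.0361), and the summed level of the list went from a median of 15215 to 45465 CPM. The other list with a call in microglia was mural and fibroblast, where 1 of 4 fell, miR-214-3p by -2.37 ± 0.33 (SE, adjusted p = 0.00209). In bulk cells both oligodendrocyte miRNAs were higher at P15 than at P6 (2.58 and 3.34 on the log2 scale), and 2 of 4 mural and fibroblast miRNAs were lower (-1.41 for miR-199a-3p and -2.04 for miR-214-3p). From P15 to 8 weeks limma with TREAT called 0 markers of the 6 lists in microglia, at log2 values from -2.08 to 1.34, while miR-199a-3p (-1.32, adjusted p = 0.0915) and miR-214-3p (-2.08, adjusted p = 0.182) passed 0.05 before adjustment. In bulk cells the same test called 1 of 2 oligodendrocyte miRNAs higher and 2 of 4 mural and fibroblast miRNAs lower. The part of these shifts in the members' changes with age, in each interval and over both, was not tested.

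In the first interval, from P6 to P15, the 2 members of the chromosome 16 cluster fell in bulk cells, with log2 differences of -1.87 ± 0.12 for miR-130b-3p (SE, adjusted p = 1.41e-08) and -1.96 ± 0.13 for miR-301b-3p (SE, adjusted p = 4.36e-08), against 1.68% of all features. The values were -0.97 ± 0.15 for miR-130a-3p (SE, adjusted p = 1) and -1.17 ± 0.09 for miR-301a-3p (SE, adjusted p = 0.361). Between P15 and 8 weeks 3 of 4 members fell, against 4.94% of all features, at -1.79 ± 0.16 for miR-130a-3p (SE, adjusted p = 4.36e-05), -1.48 ± 0.09 for miR-301a-3p (SE, adjusted p = 1.33e-05) and -2.13 ± 0.15 for miR-130b-3p (SE, adjusted p = 2.76e-09). For miR-301b-3p the value was -1.20 ± 0.17 (SE, adjusted p = 0.663). The comparisons between successive ages share the P15 libraries, so their values are set side by side only. Without the fold change threshold, limma called 3 members lower in microglia from P6 to P15 (18.3% of features), 4 from P15 to 8 weeks (19.5%) and 4 over both intervals (30.3%). In bulk cells it called 4 members lower in each of these comparisons (21%, 19% and 27.4% of features).

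The 4 members together took 7917 to 11556 CPM in P6 microglia (median 10552), 3353 to 5377 at P15 (median 4414) and 851 to 1677 at 8 weeks (median 1178). Bulk cells held 9425 to 13761 CPM (median 11513), 5310 to 7910 (median 6304) and 1037 to 1673 (median 1491). In both fractions the summed level of the seed was thus lowest at 8 weeks, with no overlap between any pair of ages. The sum was not tested.

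The makeup of this sum is given as the share of each member in the summed counts. miR-130a-3p made up 60.1% ± 10.9 (SD, n = 10) of the summed counts in P6 microglia. At P15 its microglial share was 49.8% ± 12.7 (SD, n = 12), and 8-week microglia had 66.2% ± 5.46 (SD, n = 12). Bulk cells had a share of 78.7% ± 2.26 (SD, n = 10) at the first age, then 82.1% ± 0.965 (SD, n = 12) and finally 79.2% ± 2.07 (SD, n = 12). For miR-130b-3p the microglial share was 11.4% ± 4.71 (SD, n = 10), then 19.6% ± 7.17 (SD, n = 12) and finally 8.14% ± 1.64 (SD, n = 12). Its share in bulk cells was 2.86% ± 0.327 (SD, n = 10), then 1.60% ± 0.284 (SD, n = 12) and finally 1.22% ± 0.254 (SD, n = 12). miR-301a-3p held mean shares between 15.9% and 28.8% in the 6 combinations of fraction and age, and miR-301b-3p between 0.402% and 2.66%. Since ligation and capture differ between miRNA sequences, a share is read across groups and not as the number of molecules of one member against another.

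**Figure D3:**
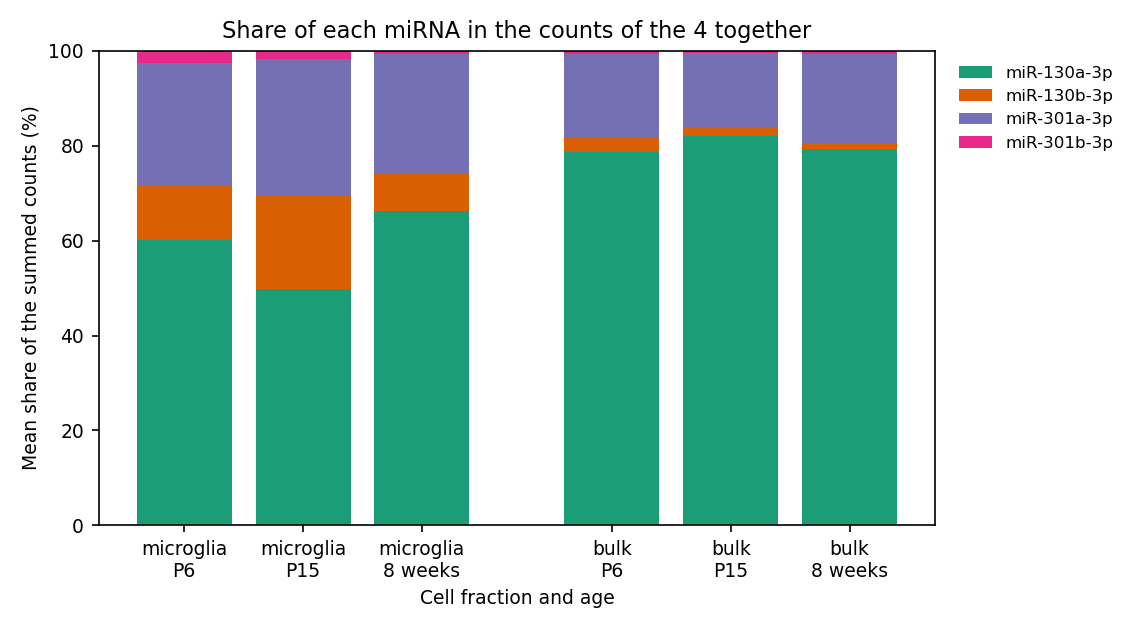
Mean share of each member in the summed counts of the 4 members (%), stacked to 100, in microglia (left) and bulk cells (right) at each age. The orange part, miR-130b-3p, is at 19.6% in P15 microglia and 1.60% in P15 bulk cells.

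Ratios between 2 members within a library do not depend on how libraries are scaled. All 6 pairs were compared between fractions at each age, by an exact test that flips the sign of the within-mouse difference, and between P6 and 8 weeks in each fraction, by a permutation test over libraries, both two-sided. Of the 30 tests, 16 of 18 between fractions and 10 of 12 between ages passed 0.05 after Benjamini-Hochberg adjustment over all 30. Ratios of other pairs of features were not computed, and most single features also differed between the fractions without a fold change threshold, so nothing particular to the family is read from these counts. The pair of the chromosome 16 cluster, miR-130b-3p over miR-301b-3p, is described in full because both miRNAs come from one intron.

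At P6 the log2 ratio of this pair ranged from 1.62 to 2.25 in microglia (median 2.13) and from 1.63 to 2.18 in bulk cells (median 1.92). The fractions overlapped, 7 of 10 mice were higher in microglia, and the mean difference was 0.16 ± 0.10 (SE, exact p = 0.137, adjusted 0.152). At P15 the ratio was 3.0 to 3.69 in microglia (median 3.38) against 1.21 to 2.64 in bulk cells (median 2.0), without overlap and higher in 12 of 12 mice. The difference was 1.39 ± 0.14 (SE, exact p = 0.000488, adjusted 0.000937), and this p is the smallest that 12 mice can give. At 8 weeks the ratio was 3.09 to 4.06 in microglia (median 3.48) and 0.26 to 2.12 in bulk cells (median 1.14), with a difference of 2.46 ± 0.18 (SE, exact p = 0.000488, adjusted 0.000937) and a higher value in 12 of 12 mice. Between P6 and 8 weeks the ratio rose in microglia by 1.46 ± 0.10 (SE, permutation p = 2e-05, the smallest that the resamples can give, adjusted 0.000120) and fell in bulk cells by 0.83 ± 0.16 (SE, permutation p = 1.00e-04, adjusted 0.000500).

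**Figure D4:**
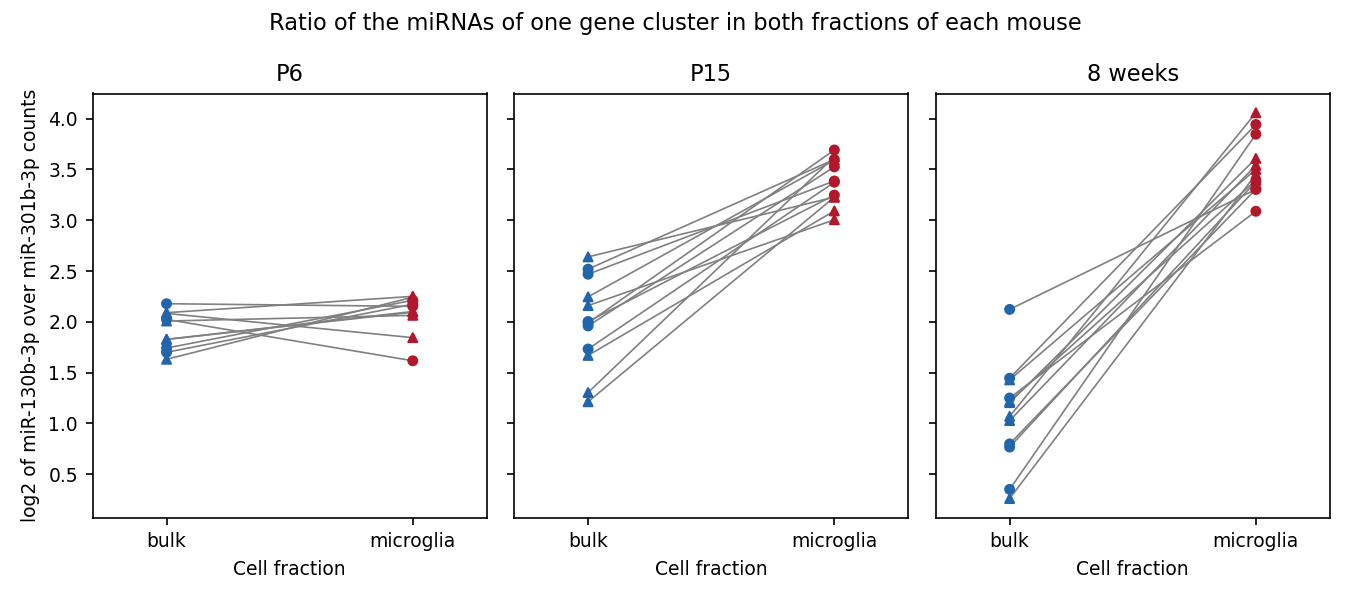
Log2 ratio of miR-130b-3p to miR-301b-3p counts in the bulk (blue) and microglial (red) library of each mouse, joined by a line, at P6, P15 and 8 weeks, with circles for females and triangles for males. The lines rise in 7 of 10 mice at P6 and in 12 of 12 mice at P15 and at 8 weeks.

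The ratio of miR-130a-3p to miR-130b-3p, the pair that differs at 2 bases, was lower in microglia at each age, with a log2 difference of -2.32 ± 0.24 at P6, then -4.32 ± 0.28 at P15 and finally -3.0 ± 0.12 by 8 weeks (SE, exact p = 0.00195, 0.000488 and 0.000488, adjusted 0.00266, 0.000937 and 0.000937). A read that carries neither differing base cannot be assigned between these 2 members, and how the counting treated such reads was not tested. Between P6 and 8 weeks this ratio rose by 0.58 ± 0.28 in microglia (SE, permutation p = 0.0427, adjusted 0.0492) and by 1.25 ± 0.11 in bulk cells (SE, permutation p = 2e-05, adjusted 0.000120). With P6 female mouse 6 included, the microglial value was 0.46 (adjusted p = 0.134 in the permutation test). For miR-130a-3p over miR-301a-3p the ages differed by 0.20 ± 0.21 in microglia (SE, permutation p = 0.361, adjusted 0.373) and -0.10 ± 0.08 in bulk cells (SE, permutation p = 0.224, adjusted 0.240).

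The other strand of each hairpin was counted as a separate miRNA. miR-130b-5p was called higher in microglia with the ages pooled, by 1.54 ± 0.08 on the log2 scale (SE, adjusted p = 6.55e-09), and at P15, by 2.42 ± 0.13 (SE, adjusted p = 9.72e-16). At P6 its difference was 1.11 ± 0.11 (SE, adjusted p = 0.394) and at 8 weeks 1.08 ± 0.16 (SE, adjusted p = 0.538). Its median was 126, 86.1 and 17.6 CPM in P6, P15 and 8-week microglia, and 58.8, 18.7 and 8.50 CPM in bulk cells.

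miR-130a-5p, like its 3p partner, was not called between fractions (pooled -0.94 ± 0.15, SE, adjusted p = 1), and it fell from P6 to 8 weeks by -3.69 ± 0.32 in microglia (SE, adjusted p = 8.07e-11) and by -3.30 ± 0.26 in bulk cells (SE, adjusted p = 9.69e-12). miR-301a-5p stayed at or below 5.21 CPM in each library, and no comparison of it passed the test. miR-301b-5p had at most 3 counts in any of the 68 libraries and was not tested.

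miR-148a-3p, miR-148b-3p and miR-152-3p form another family whose seed is offset by 1 base from that of miR-130 and miR-301, so that bases 2 to 8 of one, in capitals, are bases 1 to 7 of the other, as in miR-152-3p.
mmu-miR-152-3p: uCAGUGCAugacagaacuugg
miR-152-3p was called higher in microglia with the ages pooled, by 1.23 ± 0.05 on the log2 scale (SE, adjusted p = 2.51e-05), and it rose from P6 to 8 weeks in microglia by 1.29 ± 0.09 (SE, adjusted p = 0.0124), in the direction opposite to the 4 members. miR-148a-3p fell in microglia by -1.92 ± 0.12 over the same ages (SE, adjusted p = 3.45e-09). For miR-148b-3p no comparison between fractions or ages passed, and in bulk cells 0 of 3 members of this family passed between P6 and 8 weeks.

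Among the other features, likeness to each member was measured as Pearson's r of TMM-scaled log2 levels over the 68 libraries, among 495 features with a mean of at least 10 CPM. These values are descriptions, since the libraries share ages, fractions and mice. miR-130b-3p was most like miR-18a-5p (r = 0.96), miR-130b-5p (0.94) and miR-19a-3p (0.94). miR-130a-3p was most like miR-449a-5p (0.96), miR-296-3p (0.93) and miR-199b-3p (0.93). miR-301a-3p was most like miR-296-3p, miR-199b-3p and miR-199a-3p (0.90 each), the last pair with the same mature sequence and miR-199a-3p also among the mural and fibroblast markers. miR-301b-3p was most like miR-130b-5p (0.90), miR-3473b (0.87) and miR-3473e (0.87), the last pair with mature sequences that overlap almost fully, so that the counting may not separate them. Within the family, r was 0.94 for miR-301a-3p with miR-301b-3p, 0.88 for the cluster pair and 0.41 for miR-130a-3p with miR-130b-3p.

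Both miR-18a and miR-19a belong to the miR-17-92 cluster, which with its paralogue miR-106b-25 is known to be abundant in dividing cells. The 9 listed miRNAs of these clusters are miR-17-5p, miR-18a-5p, miR-19a-3p, miR-19b-3p, miR-20a-5p, miR-92a-3p, miR-106b-5p, miR-93-5p and miR-25-3p. At P6 0 of 9 were called higher in microglia (median log2 fold change 0.92), at P15 9 of 9 were (median 1.62) and at 8 weeks 9 of 9 were (median 2.38), beside medians of 0.25, 0.28 and -0.10 over all features. Between P6 and 8 weeks 9 of 9 fell in bulk cells (median -1.98), and 1 of 9, miR-18a-5p, fell in microglia (-1.48 ± 0.11, SE, adjusted p = 0.000390), where the median was -0.49. The values of the list ran from -3.61 (miR-18a-5p) to -1.30 in bulk cells and from -1.48 to -0.32 in microglia. Those of the 4 members ran from -4.00 to -2.65 and from -4.42 to -2.46, so the ranges overlapped in bulk cells and not in microglia, and the lists were not tested against each other.

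Levels varied more among microglial than among bulk libraries for miR-130a-3p, with an SD of 773 CPM around a mean of 2208 in P15 microglia and of 708 around 5305 in P15 bulk cells. The microglial level of each member was therefore set beside the summed level of each of 6 marker lists, separately at each age, an analysis chosen after the values had been seen. Of 72 relations 1 passed 0.05 after Benjamini-Hochberg adjustment of a permutation p for Pearson's r, and 0 did for Spearman's rho. That relation was between miR-301b-3p and the myeloid miRNAs at P6 (r = 0.92, permutation p = 0.00039, adjusted 0.0281, and rho = 0.78, permutation p = 0.0106, adjusted 0.216, n = 10), and r was 0.67 without the 2 libraries farthest from the median. At P15 miR-130a-3p went with the mural and fibroblast miRNAs at r = 0.77 (permutation p = 0.00285, adjusted 0.0601, and rho = 0.66, permutation p = 0.0220, adjusted 0.216, n = 12), which was 0.45 without the 2 farthest libraries.

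P15 male mouse 6 had the lowest miR-130a-3p level (835 CPM) of the P15 microglial libraries. It also had the lowest mural and fibroblast sum (2042 CPM) and the highest myeloid sum (34889 CPM) of them. P15 male mouse 1 had the highest miR-130a-3p level (3685 CPM), the lowest miR-130b-3p level (508 CPM) and the lowest myeloid sum (11364 CPM). At P15 the lowest and highest miR-130a-3p levels thus went with the highest and lowest myeloid sums. At P6 male mouse 5 had the lowest miR-130a-3p level (2815 CPM), with the highest levels of the other 3 members and the highest myeloid (34055 CPM) and erythroid (44378 CPM) sums. The part of other cell types in the microglial levels was not tested.

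**Figure D5:**
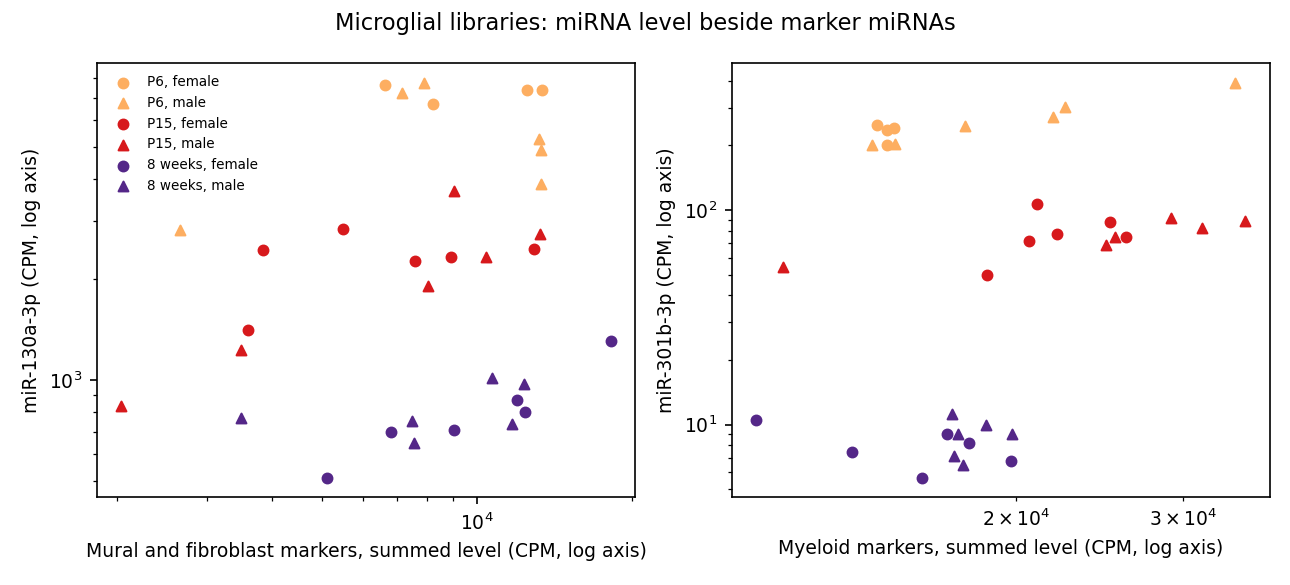
Microglial libraries by age and sex, with miR-130a-3p against the summed level of mural and fibroblast miRNAs (left) and miR-301b-3p against that of myeloid miRNAs (right), in CPM on log axes. Within P15 the library with 835 CPM of miR-130a-3p is also lowest in the mural and fibroblast sum and highest in the myeloid sum. Within P6 the library highest in the myeloid sum is highest in miR-301b-3p.

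Lastly, females and males were compared within each age and fraction. By limma with TREAT, 0 of 4 members were called in each of the 6 comparisons, and so were 0% of all features. Without a fold change threshold 1 member was called in 1 of the 6, by limma and likewise by edgeR and by DESeq2. This was miR-130b-3p in P15 bulk cells, which ranged from 66.5 to 108 CPM in males (median 89.7) and from 109 to 137 CPM in females (median 117). The male minus female log2 difference was -0.71 ± 0.17 (SE, limma adjusted p = 0.0113), where 1.4% of all features were called lower in males. In that group all 4 members passed 0.05 before adjustment by limma without the threshold, with differences from -0.71 to -0.38, against 15.3% of all features. With library size as the only scaling these differences were -0.49 to -0.16 (-0.49 ± 0.18 for miR-130b-3p, SE), and the median of all features moved by 0.23, from -0.09 to 0.13, so the sizes depend on the scaling. In P6 microglia 1 of 4 members did, against 8.49% of features, namely miR-130a-3p with a difference of -0.63 ± 0.24 (SE, limma adjusted p = 0.435 without the threshold). None of the 4 members did in P15 or 8-week microglia or in P6 or 8-week bulk cells, where 4.38%, 4.85%, 9.98% and 1.31% of features did. The 6 comparisons hold 4 to 6 mice per sex.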

How the data were processed

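Small RNA libraries were made from RNA of CD45+ and CD45- cells of each mouse. The study's methods and the submitters' processing notes name fastp 0.20.0 for trimming and miRDeep2 for mapping to mm10 (GRCm38) and quantification. The deposited table holds raw read counts per miRNA, without normalisation. For their own tests the authors scaled counts by TMM. Totals per library ranged from 1678034 to 8747394 counts, so that 3 counts, taken as the limit of detection for counting error only, stood for 0.343 to 1.79 CPM. PCR reads are not independent molecules.

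The table had 2029 entries with 1885 names. One entry per name was kept (48.9 to 66.4% of counts), and 3 unannotated candidates identical to others were dropped. P6 female mouse 6 was set aside. Counts were scaled by TMM (edgeR 4.0.16) and fitted in limma 3.58.1 (R 4.3.3) by voom with 12 groups of age, sex and fraction and the mouse as a random effect. The 2 libraries of a mouse are paired by the design, and their consensus correlation was 0.124. TREAT tested each contrast. Ratios used counts plus 0.5 (scipy 1.17.1), with 100000 resamples between ages. On simulated data, 200 features changed by 2.5 on the log2 scale were recovered at 100% for microglia against bulk cells pooled over ages (914 features), 97.5% for 8-week against P6 microglia (948 features) and 96.0% for the interaction between these ages (953 features). The simulated counts had no mouse effect and the same spread setting for all features. Changes nearer to 2-fold were not simulated, so these rates do not bear on calls near that threshold. No pair of libraries was identical.

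The alternatives were a test with no fold change threshold (limma, edgeR quasi-likelihood, DESeq2 1.42.0), other scalings, filters and treatments of the mouse, inclusion of P6 female mouse 6, summed entries, and leaving out each mouse. All 4 members were named, with other strands, miRNAs of the same or offset seed, the miR-17-92 and miR-106b-25 clusters, cell type markers and the 3 features most like each member. The members and lists were chosen with earlier results of these data known.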

Additional observations from a re-analysis of the deposited data

Results flagged for a closer look

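In 48 groups of a member, age, sex and fraction, the highest or lowest library was compared with its neighbours, and chance alone puts about 1 in 20 such groups past the limit of Dixon's test, or 2.4 of 48. In 2 of them a library stood apart. For miR-130a-3p in 8-week male bulk cells, replicate 4 was lowest at 885 CPM, with the next at 1179 CPM and the highest at 1354 CPM (n = 6). For miR-301a-3p in P15 female bulk cells, replicate 1 was highest at 1256 CPM, with the next at 1088 CPM and the lowest at 987 CPM (n = 6). The microglial excess of miR-130b-3p differed between P15 and P6 by 1.63 on the log2 scale in the limma interaction test (adjusted p = 0.00320). It was not called without P15 male mouse 6 (1.46, adjusted p = 0.0673) or with library size as the only scaling (1.34, adjusted p = 0.363). The causes of these 3 results were not tested.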

How the results depend on the processing

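With no fold change threshold the limma test called 4 members pooled, 4 at P6, 4 at P15 and 3 at 8 weeks between microglia and bulk cells (in place of 1, 2, 2 and 1), 3 in microglia and 4 in bulk cells between P6 and P15 (in place of 1 and 2), 3 for the interaction of P15 with 8 weeks and 2 for that of P6 with 8 weeks (in place of 0), and 1 between the sexes in P15 bulk cells. DESeq2 gave the same counts, and edgeR gave them except at P6, where 3 were called. With library size alone, 2 members were called in microglia between P6 and P15 (miR-130a-3p at -1.55, adjusted p = 0.00882, was added) and 0 for the interaction of these ages. In bulk cells miR-301b-3p was called between P15 and 8 weeks (-1.68, adjusted p = 0.00177). The interaction values of miR-301a-3p changed sign without being called, to -0.012 from 0.28 between P6 and P15 and to -0.10 from 0.05 between P6 and 8 weeks. This scaling moved the median of all features by -0.47 to 0.23, so the smaller differences are relative to the scaling used. Leaving out each mouse in turn gave counts of 1 to 2 in microglia between P6 and P15, and 0 to 1 for the interactions of P6 with P15 and of P15 with 8 weeks. Over these runs miR-130b-3p lay between 1.46 and 1.66 in the first interaction, and miR-301b-3p between -1.76 and -1.46 in the second. The replicate block, that is the mouse, changed no call: without it the counts were 1, 2, 2 and 1 between fractions, and with the mouse as a fixed replicate block the 28 values that could be fitted kept their call. DESeq2 size factors, no filter, inclusion of P6 female mouse 6 and summed entries changed none of 52 member values beyond their side of the threshold. With that mouse included, 9 of 12 ratios passed between ages, and a pseudocount of 1 left 16 and 10. The causes were not tested. Depth limits miR-301b-3p at 8 weeks, where bulk libraries held 15 to 65 counts. Cell numbers per fraction and messenger RNA targets were not analysed here.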
